A study of Mus musculus with 16 samples.

Results

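A set of 10 genes that mark disease-associated microglia was followed by name in a raw count table of 55335 genes from mouse hippocampus, and each was present: the receptor Trem2 and its adaptor Tyrobp, the surface receptors Clec7a, Itgax and Axl, the lysosomal and phagosomal genes Cst7, Cd68 and Gpnmb, the tetraspanin Cd9, and the secreted protein Spp1. The table held 16 mice, 4 per group, which the study describes as female, and each library came from the whole hippocampus of 1 mouse at 10 months of age. WT-D and WT-S mice were wild-type, of strain C57BL/6J x 129S1, and 3xTg-D and 3xTg-S mice were of the 3xTg triple-transgenic Alzheimer's model, in which human APPSwe and tauP301L are driven by the neuron-specific Thy1.2 element. All 16 mice wore a pump that infused the lateral ventricle for 28 days. In WT-D and 3xTg-D mice it held the vehicle, 0.8% DMSO in artificial cerebrospinal fluid. In WT-S and 3xTg-S mice the same vehicle carried 80 µM of Cayman 10566 (CAY10566), an inhibitor of stearoyl-CoA desaturase (SCD), the enzyme that makes monounsaturated fatty acids. The treatment labels and titles name the Cayman compound, while a protocol text common to all samples names ab142089. The transgenes and the strain background of the 3xTg mice cannot be told apart in these comparisons.

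Microglia are the resident macrophages of the brain. Around amyloid plaques and in neurodegeneration they can leave the homeostatic state, marked by genes such as P2ry12 and Tmem119, for a state in which genes of phagocytosis, the lysosome and lipid handling are raised. TREM2 at the cell surface binds lipids and lipoproteins and signals through TYROBP, and the full change of state depends on it. In bulk hippocampus, fewer cells of a type and less RNA per cell cannot be told apart.

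The members did not move together between genotypes. Gpnmb was lower in 3xTg than in WT mice under vehicle and under the inhibitor. Cst7 was higher in 3xTg-S than in WT-S mice, and between 3xTg-D and WT-D mice it missed the threshold. Trem2, Tyrobp, Clec7a, Axl, Cd68, Cd9 and Spp1 did not pass the test in either genotype comparison. Between treatments, Clec7a was lower in 3xTg-S than in 3xTg-D mice, a call that was lost without any 1 of the 3xTg-S mice. A gene counted as differentially expressed (DEG) when its unadjusted p was at most 0.01 in edgeR's quasi-likelihood test (two-sided), among the 16475 genes that passed its filter on low counts. Of the 10 members, 9 passed that filter, and Itgax, with 2 to 26 reads per mouse, did not.

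Depth was 15413385 to 23590149 reads on genes per mouse. Neuron markers summed to 9494 to 11500 CPM (reads scaled to the TMM-normalized library size) and the 22 homeostatic microglia markers to 872.9 to 1503 CPM, so RNA of both lists was present in every library. A pair of vehicle libraries stood apart before any comparison. WT-D mouse 1 and 3xTg-D mouse 2 had 848.5 and 724.8 CPM for 14 markers shared by microglia and macrophages (complement C1q, Ctss, Mpeg1 and others), against 234.7 to 361.8 CPM in the other 14 mice. They also had the highest sums of monocyte and neutrophil markers (9.76 and 2.39 CPM, others at most 1.90 CPM) and of lymphocyte markers (2.96 and 1.89 CPM, others at most 1.31 CPM). The monocyte receptor Ccr2 reached 6.46 CPM in WT-D mouse 1, and the neutrophil genes Ngp, Camp and Retnlg had no read there, which allows up to 0.127 CPM for each. The other genes of that list, which include the neutrophil genes S100a8 and S100a9, did have reads in that mouse. The part of such cells in the members' levels was not tested. For each member, values without these libraries are given beside those with them.

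**Figure D1:**
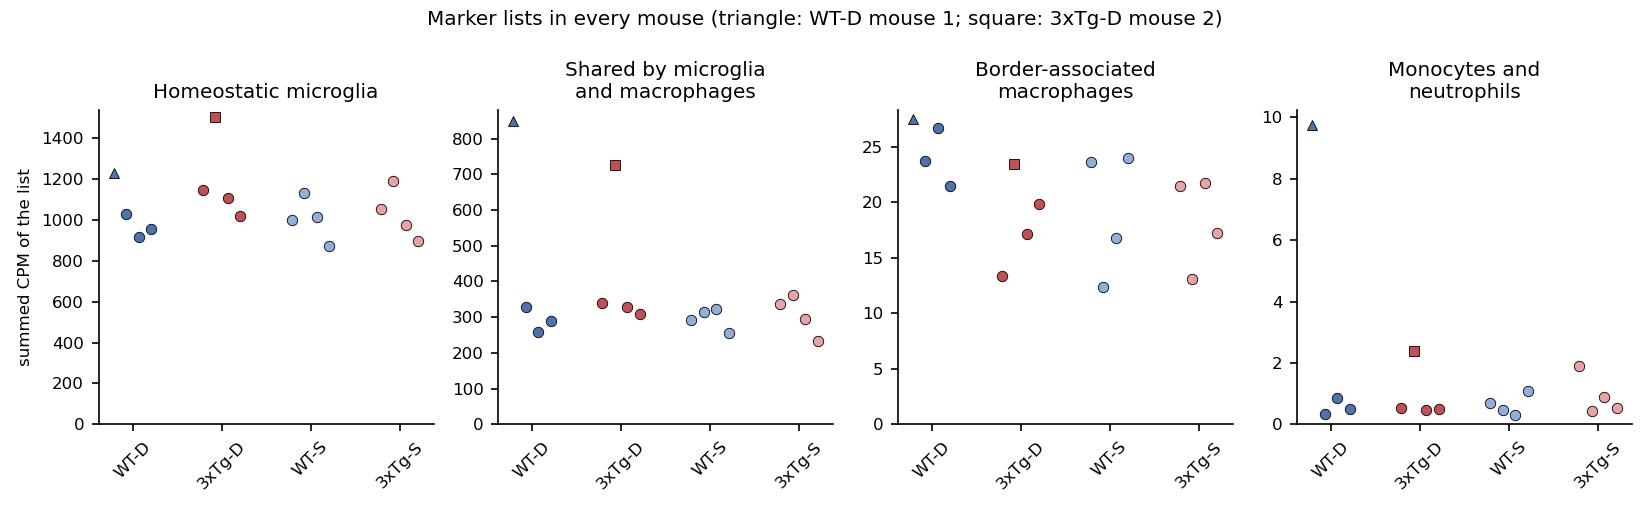
Summed CPM (vertical axis, from 0) of 4 marker lists in each of the 16 mice, by group. WT-D mouse 1 (triangle) and 3xTg-D mouse 2 (square) sit at 848.5 and 724.8 CPM for the markers shared by microglia and macrophages, above the other 14 mice, and WT-D mouse 1 at 9.76 CPM for monocyte and neutrophil markers.

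Per kilobase of exon the members spanned a wide range. Mean levels in WT-D mice were 19.6 ± 3.48 RPKM (CPM per kilobase of exon, SD, n = 4) for Cd9 and 17.3 ± 5.51 RPKM for Tyrobp, which did not differ beyond their spread. Axl followed at 10.1 ± 0.798 RPKM and Cd68 at 5.93 ± 1.81 RPKM. Spp1 (2.69 ± 1.88 RPKM), Trem2 (1.63 ± 0.269 RPKM), Gpnmb (1.36 ± 0.299 RPKM) and Clec7a (0.902 ± 0.992 RPKM) lay within each other's spread from one neighbour to the next. Cst7, at 0.232 ± 0.332 RPKM, and Itgax, at 0.0984 ± 0.0873 RPKM, were lowest. Exon length here counts every annotated transcript, retained introns included, so a gene such as Trem2, with 4946 exon bases, may be set low on this scale.

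**Figure D2:**
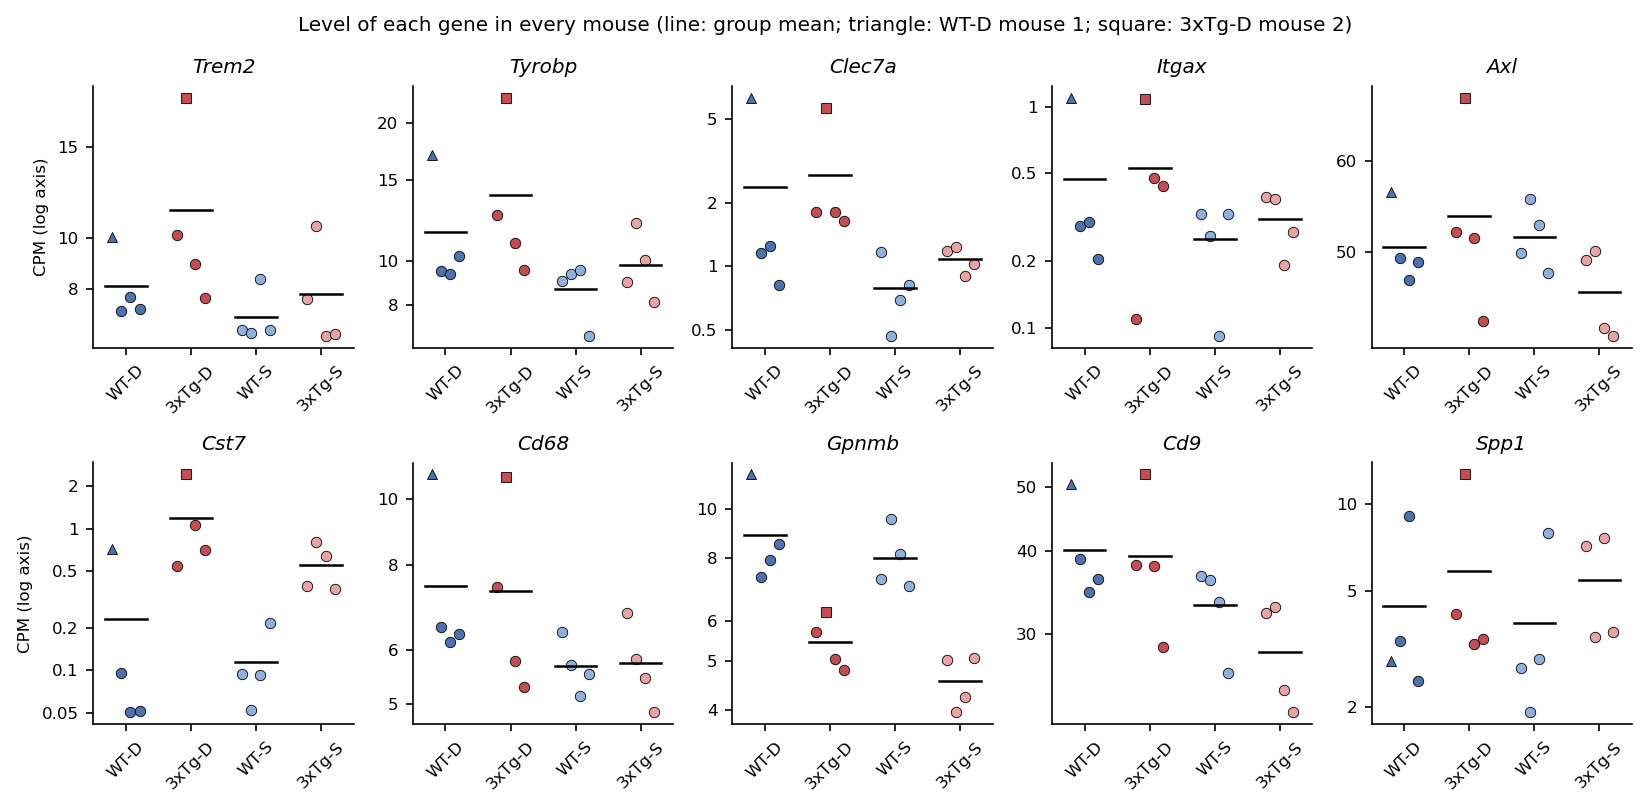
CPM (log axis, one scale per panel) of the 10 members in each mouse by group, with the group mean as a line. All 8 3xTg mice lie below all 8 WT mice for Gpnmb, and WT-D mouse 1 (triangle) and 3xTg-D mouse 2 (square) are the highest of their groups for Trem2, Tyrobp, Clec7a, Itgax, Axl, Cst7, Cd68, Gpnmb and Cd9.

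Trem2 (chr17:48346401-48354147, plus strand, GRCm38) was similar across groups apart from 3xTg-D mouse 2. Its levels were 10.1, 7.25, 7.71 and 7.30 CPM in WT-D mice 1 to 4, 10.2, 18.6, 8.92 and 7.69 CPM in 3xTg-D mice, 6.67, 6.58, 8.34 and 6.67 CPM in WT-S mice, and 7.65, 10.5, 6.49 and 6.53 CPM in 3xTg-S mice. The groups overlapped, and 3xTg-D mouse 2 was the highest of all 16 mice. Under vehicle the log2 fold change of 3xTg over WT was 0.50 ± 0.26 (SE), with an unadjusted p of 0.0801 and an adjusted p of 0.468 in edgeR's test. Without 3xTg-D mouse 2 it was 0.14, and without both vehicle libraries 0.26. Without WT-D mouse 1 it was 0.62 (unadjusted p = 0.0446, adjusted p = 0.434, edgeR), which did not pass. The inhibitor comparison in 3xTg mice gave -0.54 ± 0.27 with all mice and -0.20 without 3xTg-D mouse 2.

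Tyrobp (chr7:30413760-30417585, plus strand), which carries the activating motif that TREM2 lacks, followed the same mice. It stood at 17.0, 9.51, 9.36 and 10.3 CPM in WT-D mice, 12.6, 22.7, 10.9 and 9.54 CPM in 3xTg-D mice, 9.02, 9.33, 9.54 and 6.84 CPM in WT-S mice, and 8.96, 12.1, 10.0 and 8.10 CPM in 3xTg-S mice. The highest mouse of each vehicle group was the one with high shared markers. The genotype difference under vehicle was 0.28 ± 0.29 on the log2 scale (SE, adjusted p = 0.741, edgeR). It was -0.07 without 3xTg-D mouse 2, 0.53 without WT-D mouse 1 and 0.18 without both.

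Clec7a (chr6:129461591-129472779, minus strand), a pattern recognition receptor for fungal glucans, was the member that passed the test between 3xTg-S and 3xTg-D mice. Vehicle 3xTg mice had 1.81, 5.62, 1.80 and 1.64 CPM and inhibitor-treated 3xTg mice 1.18, 1.24, 0.899 and 1.03 CPM. The groups did not overlap, which held for 3.16% of all tested genes in this comparison. The fall was 2.53-fold (log2 fold change -1.34 ± 0.42, SE), with an unadjusted p of 0.00887 and an adjusted p of 0.722 in edgeR's test. It was -0.69 without 3xTg-D mouse 2 (unadjusted p = 0.00977, edgeR, adjusted p = 1.0), and leaving out any 1 of the 4 3xTg-S mice took the unadjusted p in edgeR's test above the threshold, to at most 0.024 (log2 fold changes -1.27 to -1.42).

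In WT mice Clec7a stood at 6.29, 1.15, 1.25 and 0.817 CPM under vehicle and 1.17, 0.466, 0.688 and 0.814 CPM under the inhibitor. WT-D mouse 1 was far above the other WT mice, and the groups overlapped. The log2 fold change of WT-S over WT-D was -1.61 ± 0.64 (unadjusted p = 0.0294, adjusted p = 1.0, edgeR), and without WT-D mouse 1 it was -0.44. With the mouse number as a block, Clec7a passed the threshold there at -1.32 (unadjusted p = 0.00621, adjusted p = 0.920, edgeR). Between genotypes under vehicle Clec7a differed by 0.19 ± 0.65, by 1.36 without WT-D mouse 1 and by -0.47 without 3xTg-D mouse 2. It differed by 0.70 without both (unadjusted p = 0.0171, adjusted p = 0.265, edgeR), so its direction turned with the library left out. Over both treatments the genotype difference was 0.33 with all mice, -0.01 without 3xTg-D mouse 2 and 0.91 without WT-D mouse 1. Without both it was 0.57. The 0.91 and 0.57 passed as DEGs, higher in 3xTg mice (unadjusted p = 0.00761 and 0.00937, adjusted p = 0.116 and 0.137, edgeR).

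Itgax (chr7:128129547-128150657, plus strand), the alpha subunit of an integrin of dendritic cells and activated microglia, had too few reads for the test. Its reads were 26, 6, 6 and 4 in WT-D mice, 2, 26, 9 and 8 in 3xTg-D mice, 7, 5, 2 and 6 in WT-S mice, and 6, 8, 3 and 5 in 3xTg-S mice. Both libraries of 26 reads were the ones that stood apart. Pooled over both treatments, 62 reads in WT and 67 in 3xTg mice gave a ratio of 1.19 (95% exact interval 0.831 to 1.71, counting error only). The ratio was 1.76 (1.16 to 2.71) without WT-D mouse 1, 0.867 (0.57 to 1.31) without 3xTg-D mouse 2, and 1.28 (0.797 to 2.06) without both, so its direction turned with the library left out.

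Axl (chr7:25757273-25788705, minus strand), a receptor tyrosine kinase that binds apoptotic cells through bridging proteins, varied least, from 42.3 to 68.1 CPM over the 16 mice. Its log2 fold change was 0.09 ± 0.12 between genotypes under vehicle and -0.22 ± 0.13 between 3xTg-S and 3xTg-D mice (SE), and neither passed the test. Without 3xTg-D mouse 2 these were -0.05 and -0.10, and without WT-D mouse 1 the genotype difference was 0.15.

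Cst7 (chr2:150570415-150578944, plus strand) encodes cystatin F, an inhibitor of lysosomal cathepsins. It was a scarce transcript: reads were 17, 2, 1 and 1 in WT-D mice, 10, 58, 20 and 13 in 3xTg-D mice, 2, 1, 2 and 4 in WT-S mice, and 6, 17, 10 and 7 in 3xTg-S mice. In CPM, WT-D mice had 0.718, 0.0961, 0.050 and 0.0511, 3xTg-D mice 0.550, 2.43, 1.06 and 0.709, WT-S mice 0.0939, 0.0518, 0.0917 and 0.217, and 3xTg-S mice 0.392, 0.811, 0.642 and 0.378. Every 3xTg mouse was above every WT mouse other than WT-D mouse 1, whose level lay among the 3xTg mice.

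Between genotypes under vehicle Cst7 was 4.90-fold higher in 3xTg mice (log2 fold change 2.29 ± 0.74, SE), which missed the DEG threshold (unadjusted p = 0.0112, adjusted p = 0.217, edgeR). Without WT-D mouse 1 the log2 fold change was 4.08 (adjusted p = 0.0301, edgeR), without 3xTg-D mouse 2 it was 1.64 (adjusted p = 0.393, edgeR), and without both it was 3.42 (adjusted p = 0.00659, edgeR). Under the inhibitor Cst7 passed as a DEG, 4.77-fold higher in 3xTg-S than in WT-S mice (log2 fold change 2.25 ± 0.49, unadjusted p = 0.000803, adjusted p = 0.0554, edgeR), and the groups did not overlap, as for 6.75% of tested genes. It kept its call without any 1 of those 8 mice, and lost it in 1 fit of all 16 mice, where the log2 fold change was 2.27 (unadjusted p = 0.0125, adjusted p = 0.193, edgeR). Over both treatments, with all 16 mice in the fit, the log2 fold change was 2.28 ± 0.51 (adjusted p = 0.0127, edgeR). It was 1.945 without 3xTg-D mouse 2 (adjusted p = 0.0249, edgeR), 3.17 without WT-D mouse 1 and 2.84 without both. As a check on counting alone, 30 reads in all WT and 141 in all 3xTg mice gave a ratio of 5.18 (95% exact interval 3.47 to 7.96). The ratio was 10.2 (5.8 to 19.7) without WT-D mouse 1, 3.63 (2.36 to 5.71) without 3xTg-D mouse 2 and 7.17 (3.97 to 14.0) without both.

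The inhibitor comparison of Cst7 in 3xTg mice gave a log2 fold change of -1.10 ± 0.49 (unadjusted p = 0.0465, adjusted p = 0.722, edgeR), and -0.47 without 3xTg-D mouse 2. In WT mice it was -1.08 ± 0.91, and 0.70 without WT-D mouse 1. Neither passed the test.

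Cd68 (chr11:69664213-69666153, minus strand), a lysosomal membrane glycoprotein of macrophages, ranged from 4.86 to 10.9 CPM. WT-D mouse 1 (10.9 CPM) and 3xTg-D mouse 2 (10.8 CPM) were the highest, and no other mouse exceeded 7.42 CPM. The log2 fold change between genotypes under vehicle was -0.02 ± 0.26 (SE), with a 95% confidence interval of -0.59 to 0.54, and under the inhibitor -0.01 ± 0.14, with an interval of -0.31 to 0.30. The difference under vehicle was -0.28 without 3xTg-D mouse 2, 0.22 without WT-D mouse 1 and -0.04 without both, and none of these passed the test.

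Gpnmb (chr6:49036546-49070929, plus strand), a transmembrane glycoprotein of phagosomes and lysosomes that is usually counted among the genes raised in this state, was lower in 3xTg mice. WT mice had 11.7, 7.35, 7.91 and 8.53 CPM under vehicle and 7.28, 9.54, 8.16 and 7.05 CPM under the inhibitor. 3xTg mice had 5.72, 6.25, 5.04 and 4.8 CPM under vehicle and 5.04, 3.96, 4.24 and 5.08 CPM under the inhibitor. All 8 3xTg mice lay below all 8 WT mice, a separation shown by 1.7% of tested genes.

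Under vehicle Gpnmb was 1.63-fold lower in 3xTg mice (log2 fold change -0.70 ± 0.16, SE, unadjusted p = 0.00145, adjusted p = 0.0653, edgeR), and under the inhibitor 1.77-fold lower (log2 fold change -0.82 ± 0.14, adjusted p = 0.0186, edgeR). Over both treatments the log2 fold change was -0.76 ± 0.11 (adjusted p = 0.000311, edgeR). It remained a DEG in all 3 comparisons without any 1 mouse, and in the vehicle comparison it was -0.54 without WT-D mouse 1 and -0.61 without both vehicle libraries. The inhibitor comparisons gave -0.26 ± 0.14 in 3xTg and -0.15 ± 0.17 in WT mice, and neither passed.

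Cd9 (chr6:125460266-125494791, minus strand) is a membrane tetraspanin that many cell types make. It stood at 50.5, 39.0, 34.7 and 36.4 CPM in WT-D mice, 38.1, 52.2, 38.1 and 28.7 CPM in 3xTg-D mice, 36.8, 36.2, 33.6 and 26.2 CPM in WT-S mice, and 32.3, 33.0, 24.7 and 22.9 CPM in 3xTg-S mice. 3xTg-S mice lay below all 4 WT-D mice, a separation that 9.55% of tested genes showed, and these groups differed by a log2 fold change of -0.53 ± 0.15 (unadjusted p = 0.00572, adjusted p = 0.133, edgeR). That call was lost without WT-D mouse 1 (-0.39), WT-D mouse 2 (-0.54), 3xTg-S mouse 3 (-0.47) or 3xTg-S mouse 4 (-0.43). Between 3xTg-S and 3xTg-D mice the log2 fold change was -0.48 ± 0.18 (unadjusted p = 0.0211, adjusted p = 0.722, edgeR), and -0.32 without 3xTg-D mouse 2. Between 3xTg-D and WT-D mice it was -0.03, and -0.20 without 3xTg-D mouse 2 or 0.10 without WT-D mouse 1. Exons of Cd9 overlap those of the antisense gene Gm26728 over 218 bases, and since the strand setting of the counting is not given in the sources used here, reads of this stretch cannot be assigned.

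Spp1 (chr5:104435118-104441050, plus strand), the secreted matrix protein osteopontin, varied 6.56-fold over the 16 mice, and the groups overlapped. Its levels were 2.87, 3.36, 9.06 and 2.45 CPM in WT-D mice, 4.18, 12.6, 3.29 and 3.43 CPM in 3xTg-D mice, 2.72, 1.92, 2.93 and 7.92 CPM in WT-S mice, and 7.13, 3.48, 7.64 and 3.62 CPM in 3xTg-S mice. The high WT libraries were WT-D mouse 3 and WT-S mouse 4, not the WT-D mouse with high shared markers. The genotype difference under vehicle was 0.43 ± 0.52 (log2, SE) and turned to -0.28 without 3xTg-D mouse 2. It was 0.27 without WT-D mouse 1 and -0.45 without both. The inhibitor comparison in 3xTg mice, -0.14 ± 0.45, turned to 0.56 without 3xTg-D mouse 2. Under the inhibitor the genotype difference was 0.48 ± 0.42 and did not pass, and without WT-S mouse 4 it was 1.08 and passed as a DEG (unadjusted p = 0.00608, adjusted p = 0.139, edgeR). Spp1 shares 309 exon bases with Gm42793 on the same strand.

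**Figure D3:**
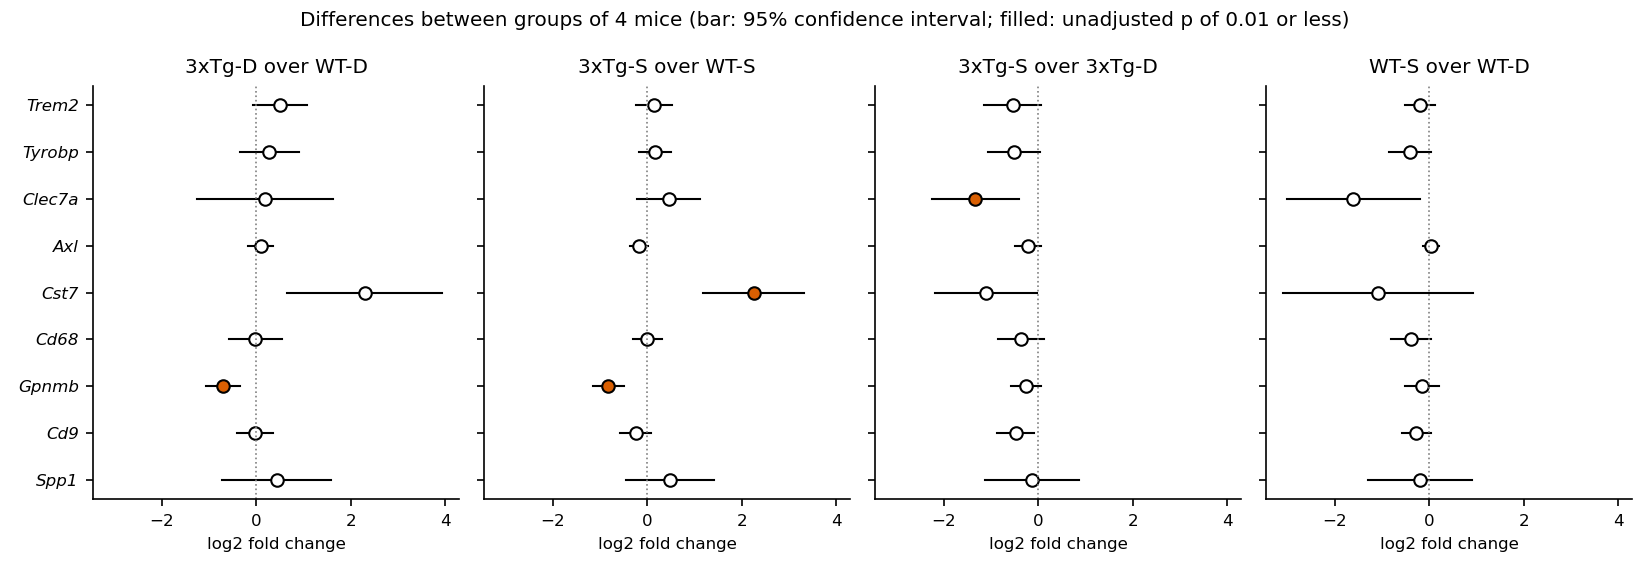
Log2 fold changes (horizontal axis) of the 9 tested members in 4 comparisons, with 95% confidence intervals and filled points for DEGs. Gpnmb lies below 0 in both genotype comparisons (-0.70 and -0.82), Cst7 above 0 in both (2.29 and 2.25, a DEG under the inhibitor), and Clec7a is the filled point in 3xTg-S over 3xTg-D (-1.34).

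Counted over the comparisons, 1 of 9 tested members was a DEG between 3xTg-D and WT-D mice (Gpnmb), where 4.91% of all tested genes were, and the median log2 fold change of the members was 0.19, against 0.00 over all tested genes. That median was -0.20 without 3xTg-D mouse 2, 0.27 without WT-D mouse 1 and 0.01 without both. Between 3xTg-S and WT-S mice it was 2 of 9 (Cst7 higher, Gpnmb lower), against 4.26% of tested genes. Between 3xTg-S and 3xTg-D mice it was 1 of 9 (Clec7a), against 0.904%, and all 9 had log2 fold changes below 0, with a median of -0.48. Without 3xTg-D mouse 2, 8 of the 9 lay below 0, with a median of -0.19. The 14 markers shared by microglia and macrophages also lay below 0 in this comparison, with a median of -0.42, and without that mouse 11 of 14 did, with a median of -0.07. Between WT-S and WT-D mice none of the 9 passed in edgeR's test, against 0.188% of tested genes, and 1 (Clec7a) had an unadjusted p under 0.05. DESeq2 called 1 of the 9 there, and 43 genes in all. There 8 of the 9 members lay below 0, with a median of -0.27, and all 14 shared markers did, with a median of -0.48. Without WT-D mouse 1 these were 6 of 9 (median -0.14) and 8 of 14 (median -0.003). 3xTg-S and WT-D mice differed in 2 of 9 (Gpnmb and Cd9, both lower), against 5.69%. These comparisons share groups of mice, so their values are not independent of each other. At an adjusted p of 0.05 or less, Gpnmb alone passed under the inhibitor (1.4% of tested genes) and between 3xTg-S and WT-D mice (1.58%), and Cst7 and Gpnmb over both treatments (2 of 9, with 7.93% of tested genes called at the unadjusted threshold and 4.97% at the adjusted one).

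The genotype by treatment interaction, which asks whether the inhibitor acted differently in the genotypes, called none of the 9 members in edgeR's test or in DESeq2, against 0.595% of tested genes in edgeR, and no member had an unadjusted p under 0.05. For Cst7 it was -0.02 ± 2.01 (log2, SE), with a 95% interval of -4.28 to 4.23, and for Clec7a 0.27 ± 0.84, so these estimates leave wide limits. For Gpnmb it was -0.11 ± 0.22, with an interval of -0.57 to 0.36.

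**Figure D4:**
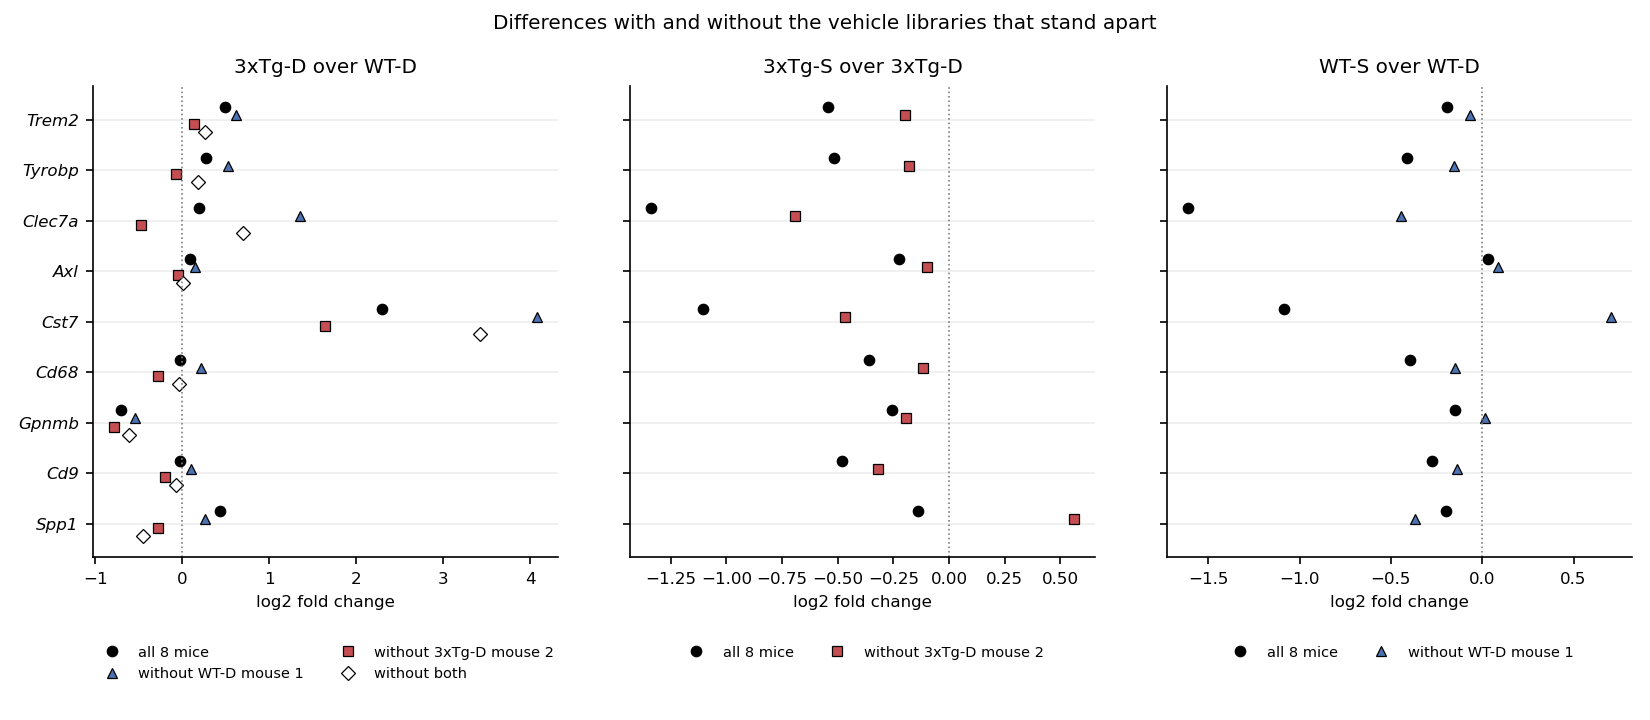
Log2 fold changes (horizontal axis) of the 9 tested members with all 8 mice and without WT-D mouse 1, 3xTg-D mouse 2 or both. Cst7 stays above 0 between genotypes (1.64 to 4.08) and Gpnmb below 0 (-0.78 to -0.54), while Clec7a moves from -0.47 to 1.36, and in 3xTg-S over 3xTg-D mice Clec7a goes from -1.34 to -0.69.

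The values of the members were then set against homeostatic microglia markers, as the log2 CPM of each member minus the mean log2 CPM of those markers in the same mouse. In this measure Gpnmb of the 3xTg-D group lay below that of the WT-D group by 0.93 (-2.07 ± 0.21 against -1.14 ± 0.23, SD, n = 4; exact permutation test, two-sided, p = 0.0286) and Cd9 by 0.30 (0.73 ± 0.12 against 1.03 ± 0.12, exact permutation p = 0.0286). That p is the smallest that 4 against 4 mice allow, and 18 such tests were made. Cd9 itself differed by -0.03 between these groups, while 17 of the 22 homeostatic markers lay above 0, with a median of 0.21. Since many cell types make Cd9, its difference in this measure cannot be assigned to microglia. Cst7 was 1.92 higher (exact permutation p = 0.0571). Clec7a was lower in 3xTg-S than in 3xTg-D mice by 0.79 (-4.03 ± 0.15 against -3.24 ± 0.48, exact permutation p = 0.0286). With the 14 shared markers as the reference, Cst7 reached an exact permutation p of 0.0286 (2.11), Clec7a kept it (-0.73), and Gpnmb (-0.74, p = 0.0857) and Cd9 (-0.11, p = 0.686) did not.

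With the homeostatic mean as a covariate in edgeR's test of genotype under vehicle, Cst7 (1.66, unadjusted p = 0.00487, adjusted p = 0.115, edgeR) and Cd9 (-0.25, unadjusted p = 0.00637, adjusted p = 0.135, edgeR) joined Gpnmb as DEGs. In 3xTg mice under the inhibitor, the same covariate left Clec7a at -0.62 (unadjusted p = 0.0331, adjusted p = 0.997, edgeR), which did not pass. Of the 22 homeostatic markers themselves, 1 was a DEG under vehicle, against 4.91% of tested genes: the purinergic receptor P2ry13, higher in 3xTg mice (0.68 ± 0.13, adjusted p = 0.0233, edgeR). The median of 0.21 for these markers was 0.04 without 3xTg-D mouse 2, 0.42 without WT-D mouse 1 and 0.19 without both. In 3xTg-S over 3xTg-D mice none of the 22 passed in edgeR's test, 2 had an unadjusted p under 0.05, DESeq2 called 1, and 21 of the 22 lay below 0, with a median of -0.31 (19 of 22 and -0.11 without 3xTg-D mouse 2).

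Few of the wider genes of the disease-associated state were DEGs under vehicle, where 4.91% of all tested genes were. Of 38 listed genes, 34 were tested, and under vehicle 1 was higher (Ctsa, a lysosomal carboxypeptidase, 0.19 ± 0.06, adjusted p = 0.189, edgeR) and 1 lower in 3xTg mice (Cox6a2, a respiratory chain subunit, -1.01 ± 0.19, adjusted p = 0.0267, edgeR), with a list median of 0.06 on the log2 scale. That median was 0.15 without WT-D mouse 1 (28 of 34 above 0), -0.03 without 3xTg-D mouse 2 (14 of 34) and 0.04 without both (21 of 34). The most abundant genes of the list did not pass: Fth1, the ferritin heavy chain, at 0.21 ± 0.10 and Apoe, the main brain lipoprotein, at 0.27 ± 0.13. Between 3xTg-S and 3xTg-D mice none of the 34 passed in edgeR's test or in DESeq2, 5 had an unadjusted p under 0.05 in edgeR, their median was -0.20 and 30 lay below 0 (-0.09 and 26 without 3xTg-D mouse 2). Of 21 genes of TREM2 and TYROBP signalling (Syk, Plcg2, Inpp5d and others), 19 were tested and none passed in either comparison by edgeR or DESeq2, with 0 and 3 at an unadjusted p under 0.05 in edgeR and medians of 0.07 and -0.27 (-0.13 and -0.11 without 3xTg-D mouse 2). The vehicle median of these signalling genes was 0.24 without WT-D mouse 1 and 0.03 without both libraries. The most abundant genes of this list, Adam10, a sheddase, and Grb2, an adaptor, had log2 fold changes of 0.03 ± 0.06 and 0.08 ± 0.05 under vehicle.

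Markers of other cell types of the hippocampus were set beside the members. Of all tested genes, 4.91% were DEGs between 3xTg-D and WT-D mice, 0.904% between 3xTg-S and 3xTg-D mice, and 7.93% over both treatments. Of 6 tested border-associated macrophage markers, Mrc1 was lower in 3xTg-D mice (-0.66 ± 0.19, adjusted p = 0.157, edgeR), and the list summed to 21.5 to 27.5 CPM in WT-D and 13.4 to 23.5 CPM in 3xTg-D mice, while Pf4, Ms4a7, Cbr2 and Clec12a were too scarce to test. Among 10 oligodendrocyte markers, Mobp and Mbp were higher in 3xTg-D mice (0.39 and 0.49), and Cldn11, Mag and Cnp were lower in 3xTg-S than in 3xTg-D mice (-0.35, -0.42 and -0.44). Cd9 did not pass in either of these comparisons (-0.03 and -0.48). Its -0.48 between 3xTg-S and 3xTg-D mice (unadjusted p = 0.0211, edgeR) was of similar size to the differences of Cldn11, Mag and Cnp. The sums of the oligodendrocyte markers were 4573 to 5411 CPM in WT-D, 5879 to 6971 CPM in 3xTg-D and 4496 to 6989 CPM in 3xTg-S mice. Of 8 tested choroid plexus markers, 3 were lower in 3xTg mice over both treatments (Ttr, Clic6 and Calml4), all 8 lay below 0 and the median log2 fold change was -1.24. Their sums were 761.6 CPM in WT-D mouse 4 and 308.1 CPM in WT-S mouse 1 and at most 70.89 CPM in the other 14 mice, while Gpnmb stood at 8.53 and 7.28 CPM in those mice, within the range of the other WT mice. Of 10 fibroblast and mural markers, 1 was a DEG over both treatments (Rgs5, lower), 8 lay below 0 and the median was -0.20. Of 9 endothelial markers none passed in edgeR's test or in DESeq2, 1 had an unadjusted p under 0.05 in edgeR, all 9 lay below 0 and the median was -0.17. The part of these cells in the levels of Gpnmb and Cd9 was not tested.

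Across the 16 mice, the genes outside the members whose standardised log2 CPM ran closest to that of Trem2 were Gfap, Tmem119 and Vamp3, with mean absolute differences of 0.26, 0.29 and 0.32 SD (median over all tested genes 1.06 SD). Closest to Tyrobp were Lair1, Selplg and C1qa (0.25, 0.29 and 0.30 SD), to Cd68 Ctsh, Ptpn18 and Vim (0.27, 0.28 and 0.30 SD), and to Cd9 Lap3, S100a6 and Rnf135. These are descriptions over mice that share the high values of WT-D mouse 1 and 3xTg-D mouse 2.

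The members that differed between genotypes were also looked at beside their chromosomal neighbours. Over both treatments, 2 of 25 tested genes within 1 Mb of Gpnmb were DEGs (Rarres2 and Npy, both lower in 3xTg mice), and 2 of 19 within 1 Mb of Cst7 (Pygb and Gm14150, both lower), against the 7.93% of all tested genes. Their log2 fold changes were -0.48 for Rarres2, -0.49 for Npy, -0.16 for Pygb and -4.43 for Gm14150 (adjusted p = 1.12e-06, edgeR). Under vehicle Gm14150 differed by -4.08 (adjusted p = 0.00118, edgeR). Any link between Gm14150 and the level of Cst7 was not tested.

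The 250 bases before the RefSeq transcript start (GRCm38.p6) are shown for the 3 members that were DEGs between genotypes or between treatments in 3xTg mice, 5′ to 3′ on the strand of the gene: Cst7 at chr2:150570165-150570414 (plus strand), Gpnmb at chr6:49036268-49036517 (plus strand) and Clec7a at chr6:129472780-129473029 (minus strand). Capitals mark GAGGAA, the core letters bound by PU.1 and related ETS factors, which begin 96 bases before the start of Clec7a.
Cst7: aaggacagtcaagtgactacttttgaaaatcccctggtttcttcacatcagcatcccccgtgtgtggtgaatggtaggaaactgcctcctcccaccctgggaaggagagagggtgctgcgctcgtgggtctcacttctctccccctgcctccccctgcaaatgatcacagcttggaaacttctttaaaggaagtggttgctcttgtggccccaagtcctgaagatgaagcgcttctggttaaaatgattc
Gpnmb: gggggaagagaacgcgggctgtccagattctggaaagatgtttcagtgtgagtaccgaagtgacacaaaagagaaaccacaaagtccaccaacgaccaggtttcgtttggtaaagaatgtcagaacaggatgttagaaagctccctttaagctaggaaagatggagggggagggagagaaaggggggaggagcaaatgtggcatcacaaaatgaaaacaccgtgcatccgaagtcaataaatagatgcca
Clec7a: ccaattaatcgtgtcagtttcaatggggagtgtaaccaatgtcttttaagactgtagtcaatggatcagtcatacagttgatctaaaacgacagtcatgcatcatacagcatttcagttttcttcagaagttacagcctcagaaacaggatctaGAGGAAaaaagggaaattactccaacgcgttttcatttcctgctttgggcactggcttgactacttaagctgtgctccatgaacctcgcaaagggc

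Promoter windows of 250 bases before to 50 after the start were found for 9 of the 10 members (11 windows), all but Tyrobp. GAGGAA on either strand was in 6 of the 11 member windows, those of 5 members (Axl, Cd68, Clec7a, Spp1 and Trem2), and in 28.3% of all 32851 windows. TGACTCA, the AP-1 letters, was in 3 of the 11 member windows (Cd68, Gpnmb and Itgax), and in 5.2% of all windows. CACGTG, the E-box letters of TFEB and MITF, was in no member window and in 7.15% of all windows. These matches are descriptions of letters in a window.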

How the data were processed

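Total RNA of 16 hippocampi was sequenced single-end after mRNA library preparation with unique molecular identifiers. Per the labels and the study's methods, the authors trimmed reads with Trimmomatic 0.35, aligned them with STAR 2.5.1b to GRCm38 with Gencode annotation, and deposited raw counts per gene without normalization. Whether identifiers were used to remove duplicates, and the strand setting, are not given in the sources used here. The 4 alignment summary rows, with 7.82% to 15.1% of reads per mouse outside genes, were left out of library sizes. Parts of the 3xTg genotype and of the oligodendrocyte marker list are not reported here.

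The analysis used R 4.3.3 with edgeR 4.0.16: filterByExpr over all 16 mice (minimum count 10, minimum total 15), TMM, and quasi-likelihood fits of the 2 groups compared, with Benjamini-Hochberg adjustment over 16475 genes. The interaction and the genotype difference over both treatments were fitted to all 16 mice. CPM (on TMM-normalized library sizes) and RPKM were computed from the counts, with exon lengths from Gencode M21 on the same build, and log2 CPM with a prior count of 2. Intervals of pooled reads are exact at 95% and, like the floor of 3 reads, cover counting error only. Fits and permutation tests were tested on simulated data. No library copied another (chi-square per degree of freedom at least 3.64 within groups).

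All members were described, other listed genes were named when they were DEGs or among the 2 most abundant of their list, and members and lists were chosen with earlier results of these data known. The labels number mice 1 to 4 within each group and name no shared litter or batch, so p-values measure the spread between mice. Same-numbered mice of WT-D and WT-S deviated together (correlations across genes 0.11 to 0.34), and the number was also fitted as a block in each comparison. Alternatives were DESeq2 1.42.0 (likelihood ratio test) and its size factors, no filter, all 16 mice in 1 fit, the block, the adjusted threshold, the homeostatic microglia mean or the share of reads outside genes as covariate, each mouse left out, and, chosen after seeing the data, both vehicle libraries left out together, and list medians and pooled reads without either or both.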

Additional observations from a re-analysis of the deposited data

Results flagged for a closer look

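Among 52 sets of 4 mice (the members and marker sums in each group), 14 held 1 mouse far from the other 3 by Dixon's criterion at 95%. For a single set of normally distributed values, chance gives about 1 in 20. The 52 sets share the same mice, and the sums share genes with other sets, so 14 cannot be read against that rate. WT-D mouse 1 was such a mouse for Trem2 (10.05 CPM), Tyrobp (17.02 CPM), Cst7 (0.718 CPM), Clec7a (6.29 CPM), Itgax (1.10 CPM), Cd68 (10.86 CPM), the summed members (167.5 CPM) and the summed markers shared by microglia and macrophages (848.5 CPM). 3xTg-D mouse 2 was one for Clec7a (5.62 CPM), Spp1 (12.59 CPM) and the shared markers (724.8 CPM). Spp1 also stood out in WT-D mouse 3 (9.06 CPM) and in WT-S mouse 4 (7.92 CPM), and Trem2 in WT-S mouse 3 (8.34 CPM). All 14 were the highest of their groups.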

How the results depend on the processing

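No result changed direction while called. At the adjusted threshold, the DEGs between 3xTg-D and WT-D mice numbered 305 in place of 809 and members 0 in place of 1, those between 3xTg-S and WT-S mice 230 in place of 702 and members 1 in place of 2, those between 3xTg-S and WT-D mice 261 in place of 937 and members 1 in place of 2, those over both treatments 818 in place of 1307, and those between treatments and of the interaction 0 in edgeR, with members 0 in 3xTg mice. Members called under vehicle were 2 by DESeq2, without the filter, in 1 fit of 16 mice and without both vehicle libraries (Cst7 joining Gpnmb), and 3 with the homeostatic mean as covariate. In 3xTg mice under the inhibitor (149 DEGs, 1 member), 2 members were called by DESeq2 and without the filter (355 DEGs, Cd9 joining Clec7a), and 0 in 1 fit of 16 mice (249 DEGs) and with either covariate. In WT mice (31 DEGs, 0 members), 1 member was called by DESeq2, without the filter (180 DEGs), and with the homeostatic mean (53 DEGs) or the share of reads outside genes (49 DEGs) as covariate, and 1 fit of 16 mice gave 48 DEGs. Between 3xTg-S and WT-S mice, no filter gave 1077 DEGs, the homeostatic mean 1656 DEGs and 4 members, and 1 fit of 16 mice 1 member (Gpnmb, with Cst7 lost at 2.27). The interaction (98 DEGs) gave 208 without the filter and 63 without both vehicle libraries. Relative to the shared markers, 1 member in place of 2 passed the exact permutation test under vehicle.

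With the mouse number as a block, DEGs between 3xTg-S and 3xTg-D mice numbered 1133 and members 5 (Clec7a, Cst7, Cd9, Tyrobp and Trem2), those between 3xTg-S and WT-S mice 1339, those of the interaction 624, and those between WT-S and WT-D mice 115 with 1 member. Correlations of same-numbered mice were 0.02 to 0.39 between 3xTg-D and 3xTg-S and 0.06 to 0.26 between WT-D and 3xTg-S. They were -0.10 to 0.19 between WT-D and 3xTg-D and -0.10 to 0.50 between WT-S and 3xTg-S. The pairing comes from the number alone, and whether the mice were paired cannot be told from the labels. The block moved no other count by over 1.5 times.

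Leaving out 1 mouse at a time gave 651 to 914 DEGs and 1 to 2 members between 3xTg-D and WT-D mice, 68 (without 3xTg-S mouse 4) to 802 (without 3xTg-S mouse 2) and 0 to 2 members in 3xTg mice under the inhibitor, 22 to 516 (without WT-S mouse 4) and 0 members in WT mice, 516 to 993 and 2 to 3 members between 3xTg-S and WT-S mice, 664 to 1545 (without 3xTg-S mouse 2) and 1 to 2 members between 3xTg-S and WT-D mice, 56 to 487 and 0 members for the interaction, and 1134 to 1360 and 2 to 3 members over both treatments. For the marker-relative values, 3 mice against 4 allow no exact permutation p below 0.0571, so leaving out a mouse gives values only: -1.04 to -0.83 for Gpnmb and -0.35 to -0.26 for Cd9 under vehicle, and -0.90 to -0.55 for Clec7a in 3xTg mice. The causes were not tested. Depth limits Cst7, with 1 to 58 reads per mouse, Itgax and Clec7a most.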
